A study of Mus musculus with 3 samples.

Results

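4 transcripts with little or no functional description, Gm43305, Gm42031, A230065H16Rik and Gm15056, were followed through single cell libraries of lymph node stroma, as 4 of the 51912 genes listed in the count matrices. They were picked because earlier work on these same libraries had shown them high in follicular dendritic cell (FDC) barcodes, so their level in FDCs is given below as a description with no test. Stromal cells that were live, podoplanin+, CD31-, CD45- and TdTomato+ had been sorted from lymph nodes of C57BL/6 mice carrying the CXCL13-TdTomato reporter, a transgene that places Cre and tdTomato under Cxcl13, the gene of a follicular chemokine. The 2-IC group has 2 libraries, from mice given 2 antigen immune complexes (ICs), the first 7 days and the last 24 hours before collection. The 1-IC group has 1 library, from mice given 1 IC 24 hours before collection. All mice were injected with an IC, no library came from unimmunized mice, and the nodes of several mice were pooled for each library. The short descriptions of the 2-IC libraries name 24 h for one and 7 d for the other while their titles give the same treatment, and grouping here followed the titles.

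FDCs are stromal cells of B cell follicles that hold intact antigen on their surface for long periods and show it to germinal centre B cells. They catch opsonised antigen through complement receptors, among them the product of Cr2, and through Fc receptors, among them FcγRIIB (Fcgr2b) and the low affinity IgE receptor CD23 (Fcer2a). Cr2, Fcer2a and Fcgr2b are all B cell genes as well, so Cr2 alone does not separate an FDC from a B cell. Malat1 is a long noncoding RNA that stays in the nucleus, and its share of a barcode's unique molecular identifiers (UMIs) reflects how much nuclear RNA that barcode carries. Cd79a encodes a chain of the B cell receptor complex.

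The word unannotated holds for only part of this set. In GENCODE M21, on the mouse build GRCm38, Gm43305 (ENSMUSG00000105703) lies on the minus strand at chr14:54292443-54297456 and has 2 transcripts, of 705 and 4901 bases, none coding. Gm42031 (ENSMUSG00000110386) lies on the minus strand at chr8:85125872-85132289 and has 1 long intergenic noncoding transcript of 1885 bases. The other two are annotated as protein coding. A230065H16Rik (ENSMUSG00000087075), at chr12:111406809-111412090 on the plus strand, carries the current name Lbhd2, and its transcript has 670 bases. Gm15056 (ENSMUSG00000082976), at chr8:20900606-20902627 on the minus strand, has transcripts of 549 and 314 bases and the RefSeq synonym Defb52, a name from the defensin beta family of antimicrobial peptides.

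Gm43305 and Gm42031, although on different chromosomes, have nearly identical sequence around their RefSeq starts. The RefSeq promoter windows of GRCm38.p6, from 250 bases before to 50 bases after the annotated start, are printed here for both because their UMIs cannot be fully separated in what follows. The first window is chr14:54297439-54297738 and the second chr8:85131765-85132064, each 300 bases on the minus strand, read 5′ to 3′, with the bases that differ between them in capitals.
Gm43305: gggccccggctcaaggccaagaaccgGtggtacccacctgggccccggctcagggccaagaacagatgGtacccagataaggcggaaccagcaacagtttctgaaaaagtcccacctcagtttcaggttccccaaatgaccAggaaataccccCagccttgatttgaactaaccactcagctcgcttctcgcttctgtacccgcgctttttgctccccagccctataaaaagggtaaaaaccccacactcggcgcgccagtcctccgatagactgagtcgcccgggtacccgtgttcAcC
Gm42031: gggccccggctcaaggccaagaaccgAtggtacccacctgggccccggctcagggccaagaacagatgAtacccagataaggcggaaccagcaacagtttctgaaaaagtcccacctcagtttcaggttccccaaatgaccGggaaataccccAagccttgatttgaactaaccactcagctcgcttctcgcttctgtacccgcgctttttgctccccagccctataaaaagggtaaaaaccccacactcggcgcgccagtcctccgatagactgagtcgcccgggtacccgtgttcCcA
The windows were identical at 294 of 300 positions (98%) with 6 differences and no gap. The Gm42031 window lies inside the GENCODE gene, whose 5′ end is at chr8:85132289, so RefSeq and GENCODE place its start differently. A search of all 32851 promoter windows for shared runs of 30 bases found such a run in Gm33887, Gm40814 and Gm40843, which are not listed in the matrices, and in no other gene. The letters TATAAA stood 27 bases before the start in both windows, on the strand of the gene, where 8.32% of all windows hold them on that strand at any position and 13.6% on either strand. A230065H16Rik and Gm15056 had no such letters in their windows, and every other pair of members aligned at 42.4% to 48.9% identity. Part of the transcribed sequence is shared as well. Of all 90-base windows of the longest Gm43305 transcript, 7.59% were found in a transcript of another gene, and 30.2% over its last 500 bases, there in AI506816 as well as Gm42031. For the Gm43305 transcript of 705 bases it was 18.3% overall and 5.60% over the last 500 bases. For Gm42031 it was 25.6% overall and 19.0% over the last 500 bases, while A230065H16Rik and Gm15056 had none. Since 3′ libraries read the end of a transcript, the split of UMIs between Gm43305 and Gm42031 is uncertain.

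The libraries held 3790 barcodes (2-IC replicate 1), 1029 (2-IC replicate 2) and 667 (1-IC replicate 1), with 20607903, 12788101 and 3766526 UMIs. After the filters on quality and on 13 contaminant genes, 1526, 391 and 326 barcodes were retained, of which 145, 35 and 50 held at least 1 Cr2 UMI and are called Cr2+ below. As a class these 230 Cr2+ barcodes were higher in a list of 15 FDC genes, Cr2 itself included. Levels are given in CPM, the UMIs of a gene or list for every 1000000 UMIs of the class. The list summed to 72852, 47721 and 99463 CPM, against 20741, 15526 and 25276 CPM in Cr2- barcodes. Cxcl13, the gene of the sort reporter, gave 33037, 19945 and 53829 CPM of the Cr2+ sums, and Clu 17043, 11052 and 24340 CPM. A class sum does not show that each barcode fits the FDC label. A single Cr2 UMI was all that 81 of the 230 had. Median depth per Cr2+ barcode was 5166, 10091 and 4836.5 UMIs. 76 barcode sequences occurred in both 2-IC libraries, with the shallow copy at a median of 1.90% of the UMIs of the deep copy, and 4 of the 230 Cr2+ barcodes were of this shared kind. No doublet caller was run in this work. The p-values of the main fits measure how the class difference within a library varied over 3 libraries, which may be partly technical. Exact binomial intervals and zero-count limits cover counting error only.

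All 4 transcripts had most of their UMIs in Cr2+ barcodes when libraries were summed. Cr2+ barcodes made up 10.3% of the retained barcodes and 9.88% of their UMIs, but held 1980 of the 2456 member UMIs (80.6%). Their share of all UMIs was 10.1% in 2-IC replicate 1, 7.35% in 2-IC replicate 2 and 15.9% in 1-IC. A230065H16Rik was the most restricted in the sum, with 594 of 627 UMIs (94.7%), and the share was 93.7%, 97.4% and 95.1% in 2-IC replicate 1, 2-IC replicate 2 and 1-IC. Gm43305 had 53.5% (exact 95% interval 48.7 to 58.3), 78.7% (74.1 to 82.8) and 92.6% (89.5 to 95.0) of its UMIs there. These intervals do not overlap, but they treat every UMI as independent. In 2-IC replicate 1, 1 Cr2- barcode held 42 Gm43305 UMIs, and in 2-IC replicate 2, 1 Cr2+ barcode held 87. Whether the share differed between libraries was not tested. Gm42031 followed the same order, with 63.7%, 90.5% and 93.2%. Gm15056, the rarest, had 77 of 100 UMIs in Cr2+ barcodes of 2-IC replicate 1, 6 of 21 in 2-IC replicate 2 and 8 of 10 in 1-IC, so in 2-IC replicate 2 most of its UMIs lay outside Cr2+ barcodes.

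Each transcript was higher in Cr2+ than in Cr2- barcodes of every library, by a size that varied between libraries. Gm43305 reached 269.7, 674 and 1130.1 CPM in 2-IC replicate 1, 2-IC replicate 2 and 1-IC, against 26.4, 14.5 and 17.0 CPM in Cr2- barcodes. Gm42031 stood at 151, 410.1 and 386 CPM against 9.74, 3.43 and 5.29 CPM. A230065H16Rik stood at 318, 177 and 781 CPM against 2.40, 0.381 and 7.64 CPM. Gm15056 stood at 91.1, 14.4 and 24.9 CPM against 3.07, 2.86 and 1.18 CPM, the lowest Cr2+ levels of the set. For each transcript every Cr2+ value was above every Cr2- value. The 1-IC value lay above both 2-IC libraries for Gm43305 and A230065H16Rik and between them for Gm42031 and Gm15056, and no test between treatments was run, with 1 library in the 1-IC group.

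**Figure D1:**
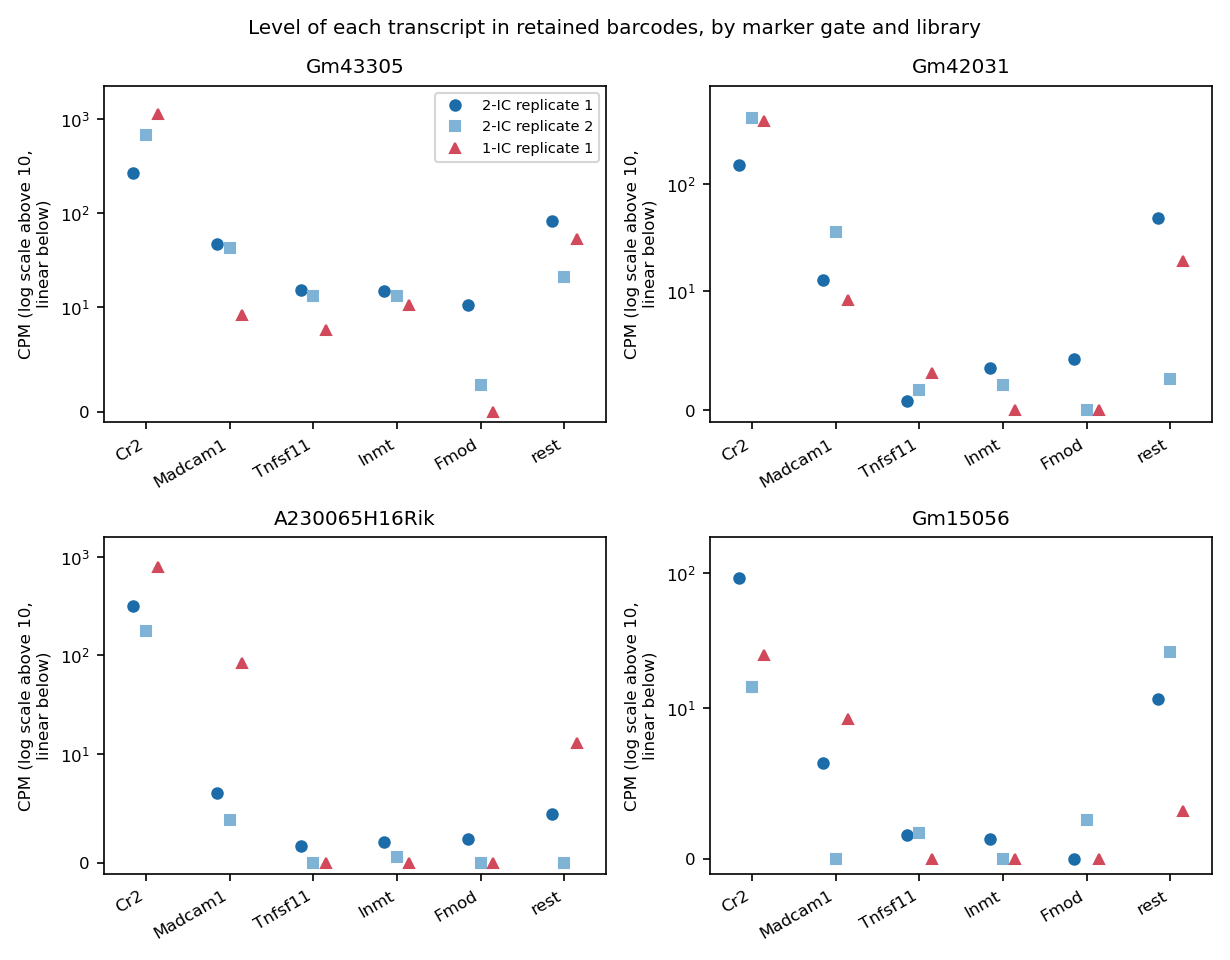
Level of each transcript in CPM (log scale above 10, linear below) in retained barcodes, by the first marker gate each barcode met (Cr2, Madcam1, Tnfsf11, Inmt, Fmod, rest), 1 point per library and classes under 5 barcodes not drawn. The Cr2 points of Gm43305 run from 269.7 to 1130.1 CPM, above those of every other gate.

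Among Cr2- stroma no gate approached those levels for Gm43305. Madcam1, which marks marginal reticular cells, was used as the next gate, and there Gm43305 stood at 47.6, 43.3 and 9.27 CPM. In barcodes with Inmt, a gene of medullary reticular cells, the values were 14.9, 13.1 and 10.6 CPM, and in those with Tnfsf11, which encodes RANKL, 15.5, 13.4 and 7.79 CPM. The barcodes that met no gate gave 83.7, 21.0 and 53.9 CPM, and in 2-IC replicate 1 up to 42 UMIs of that sum came from 1 barcode. A230065H16Rik was close to its floor elsewhere, at 1.95, 0.523 and 0 CPM in the Inmt gate. Its one higher value, 83.4 CPM in the Madcam1 gate of 1-IC, rested on 9 UMIs, 7 of them in 1 of 17 barcodes. Gm15056 stood at 26.2 CPM in the 2-IC replicate 2 barcodes that met no gate, above its 14.4 CPM in Cr2+ barcodes there. That rested on 10 UMIs, 8 of them in 1 barcode, against 6 UMIs in the Cr2+ barcodes.

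Detection per barcode was partial and did not always follow the levels. Gm43305 had at least 1 UMI in 31.0%, 60% and 62% of Cr2+ barcodes, Gm42031 in 25.5%, 57.1% and 40%, A230065H16Rik in 44.8%, 45.7% and 68%, and Gm15056 in 14.5%, 14.3% and 14%. With every barcode thinned to 2000 UMIs, leaving out 33 shallower ones, Gm43305 was found in 22.3%, 41.2% and 50% of Cr2+ barcodes. The same thinning, which left out 286 shallower Cr2- barcodes, gave 2.95%, 2.56% and 2.18% of Cr2- barcodes, whose median depth was 4673, 14962 and 6039.5 UMIs. Thinned A230065H16Rik was in 30.6%, 29.4% and 59.5% of Cr2+ barcodes and in 0.506%, 0% and 0.873% of Cr2- barcodes. The Cr2- shares, in stroma outside the FDC label, are the background against which the Cr2+ shares stand.

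A few barcodes carried much of the signal. For Gm43305 the highest Cr2+ barcode held 25, 87 and 73 UMIs, or 11.0%, 31.0% and 20.1% of the Cr2+ sum of its library. Without that barcode the level was 241, 468 and 911 CPM, in the same library order. Gm42031 was more concentrated in 2-IC replicate 2, where 1 barcode held 46.2% of the Cr2+ UMIs, and its level without the highest barcode was 133, 222 and 299 CPM. A230065H16Rik was spread more evenly, with 4.83%, 27.0% and 9.16% in the highest barcode and 304, 133 and 749 CPM without it. Gm15056 had 32.5%, 33.3% and 25% of its few UMIs in 1 barcode, and 61.9, 9.73 and 19.7 CPM without it.

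Most Cr2- barcodes with a member held 1 or 2 UMIs of it. Of the Cr2- retained barcodes, 178 had 1 or 2 Gm43305 UMIs and 7 had 3 or more. Of those 7, 5 had Malat1 under 1% of their UMIs, 6 had Clu, 3 had Coch and 3 had Fcer2a. Clu was also in 96.3% of the 1828 Cr2- barcodes with no Gm43305 UMI, whereas Coch was in 3.12% of them and Fcer2a in 1.48%. Counts of 3 or more were as rare for Gm42031 (5 Cr2- barcodes), A230065H16Rik (2) and Gm15056 (3).

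The transcripts occurred together in the same Cr2+ barcodes. None of the 4 was found in 82 of the 230, 1 in 51, 2 in 35, 3 in 47 and all 4 in 15. Gm42031 was in 62.9% of the 97 barcodes with Gm43305 and in 12.0% of the 133 without it. At 2000 UMIs per barcode the shares were 54.8% and 5.93%. A230065H16Rik was in 76.3% of barcodes with Gm43305 and in 30.8% of those without, 64.5% and 23.7% after thinning. Co-detection within a library has no replicates and was not tested, and for Gm43305 with Gm42031 the shared 3′ sequence applies. There were 1.78, 1.64 and 2.93 Gm43305 UMIs for each Gm42031 UMI in the 3 libraries.

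Cr2+ barcodes poor in Malat1 held most of the Gm43305 and Gm42031 signal. A share of Malat1 under 1% of UMIs put 35, 10 and 18 barcodes in the Malat1-low class and 110, 25 and 32 in the Malat1-high class, with 24 of the 230 between 0.5% and 2%. A single Cr2 UMI was all that 14 of 63 Malat1-low and 67 of 167 Malat1-high barcodes had. In 2-IC replicate 1, Gm43305 stood at 1101 CPM in Malat1-low and 104 CPM in Malat1-high barcodes. The same pair of values was 3428 and 202 CPM for 2-IC replicate 2, and 5289 and 270.5 CPM for 1-IC. Every Malat1-low value was above every Malat1-high value. In edgeR's quasi-likelihood test on the 6 sums, with library as a block, Gm43305 rose 3.76 on the log2 scale (SE 0.24, adjusted p = 0.000696). Gm42031 and A230065H16Rik also passed that test, so 3 members were called higher in Malat1-low barcodes, where 2.58% of the 3217 genes tested were called higher, 3.73% lower and 6.31% in either direction. Gm15056 entered the test only through its Malat1-low sums and is not counted. The members had been chosen with results on these barcodes known. These calls, and those for Fcer2a, Fcgr2b and Cd79a below, are not independent support for the choice.

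**Figure D2:**
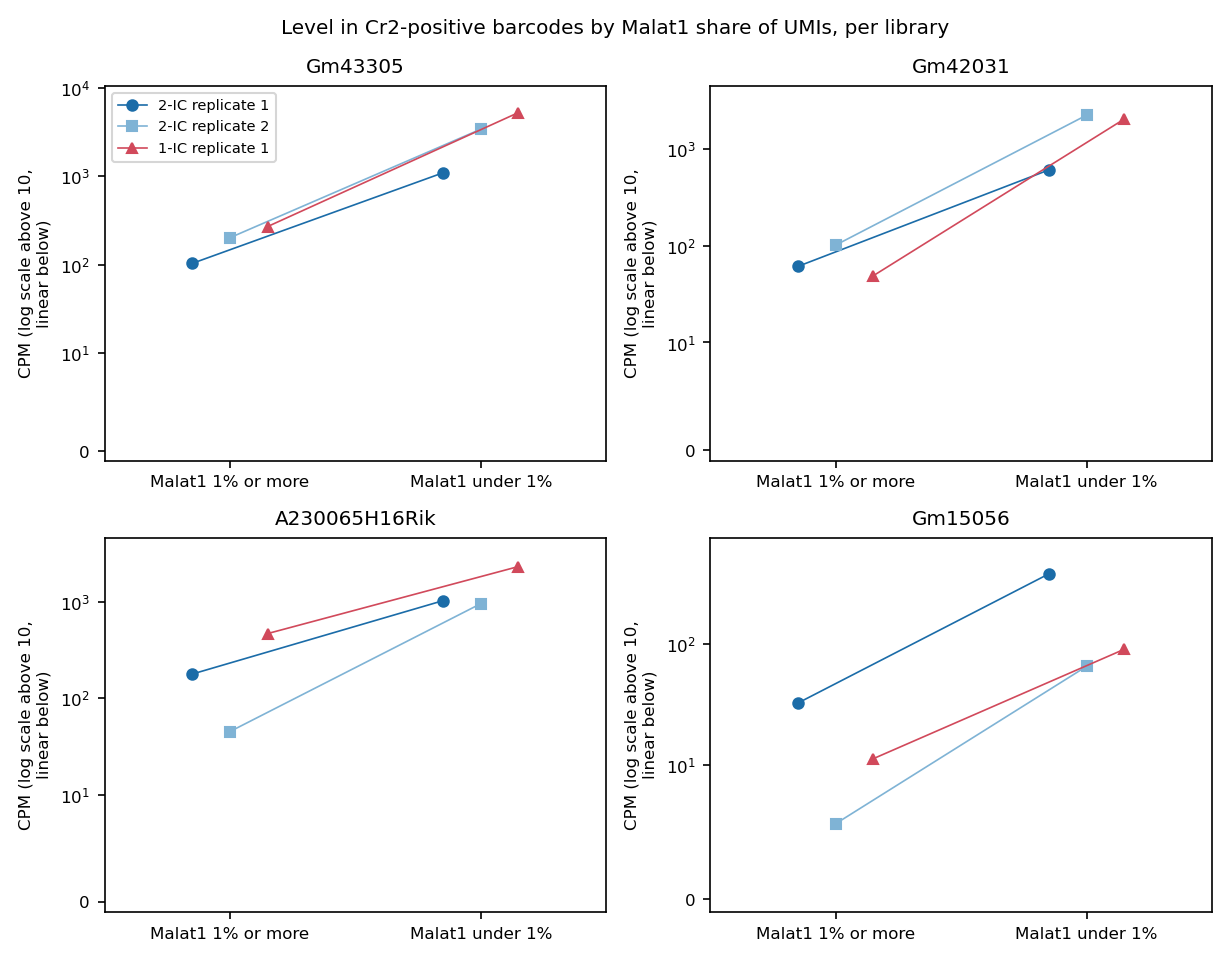
Level in CPM (log scale above 10, linear below) in Cr2+ barcodes with Malat1 at 1% or more of UMIs and under 1%, 1 line per library. The lines of all 4 transcripts rise from left to right in all 3 libraries, from 104 to 1101 CPM for Gm43305 in 2-IC replicate 1.

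Gm42031 had the largest positive log2 difference of the 3217 genes in this fit. Its levels in Malat1-low against Malat1-high barcodes were 604 against 61.0, 2214 against 101 and 2017 against 48.8 CPM in the same library order, a log2 difference of 4.14 (SE 0.37, edgeR adjusted p = 0.00338). A230065H16Rik stood at 1023 against 177 CPM, 951 against 44.9 CPM and 2308 against 466 CPM (log2 2.80, SE 0.39, edgeR adjusted p = 0.0183), so its Malat1-high level in 1-IC was well above those of 2-IC. Gm15056 stood at 384 against 32.6 CPM, 65.6 against 5.62 CPM and 90.9 against 11.3 CPM (log2 3.36, SE 0.41, edgeR adjusted p = 0.0147). Outside 2-IC replicate 1 that rested on 4 against 2 and 5 against 3 UMIs, with counting intervals of the ratio from 1.67 to 129 and from 1.57 to 51.9. Since only its Malat1-low sums passed the low-count filter, Gm15056 had to differ to be tested at all. Gm42031, Gm43305 and A230065H16Rik were among the 10 largest positive folds, at ranks 1, 3 and 10. Gm15056, at rank 5, is not counted because of that filter. Beside them were Ass1 (log2 3.81, adjusted p = 0.0312), Epsti1 (3.56, adjusted p = 0.0312), Cd52 (2.95, adjusted p = 0.0147) and Hist1h2ap (2.86, adjusted p = 0.0312), all from the same edgeR fit. These ranks depend on the filters: Gm42031, Gm43305, Gm15056 and A230065H16Rik ranked 6, 17, 34 and 32 without the contaminant filter and 29, 77, 94 and 419 without the low-count filter.

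At equal depth Gm43305 and A230065H16Rik were found in more Malat1-low than Malat1-high barcodes of each library. Malat1-low barcodes were shallower, with a median of 3368, 5774 and 3207 UMIs against 5792, 13706 and 8371 in Malat1-high ones. Thinned to 2000 UMIs, Gm43305 was in 50%, 90% and 85.7% of Malat1-low and in 14.0%, 20.8% and 32.1% of Malat1-high barcodes. A230065H16Rik was in 71.4%, 70% and 100% against 18.3%, 12.5% and 39.3%. Gm15056 was in 25%, 0% and 21.4% against 3.23%, 0% and 3.57%, so it was not found in 2-IC replicate 2 at this depth. After thinning all 4 members occurred together in 3 of 52 Malat1-low barcodes and in 1 of 145 Malat1-high ones, and no member was found in 6 of the 52 and in 91 of the 145.

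**Figure D3:**
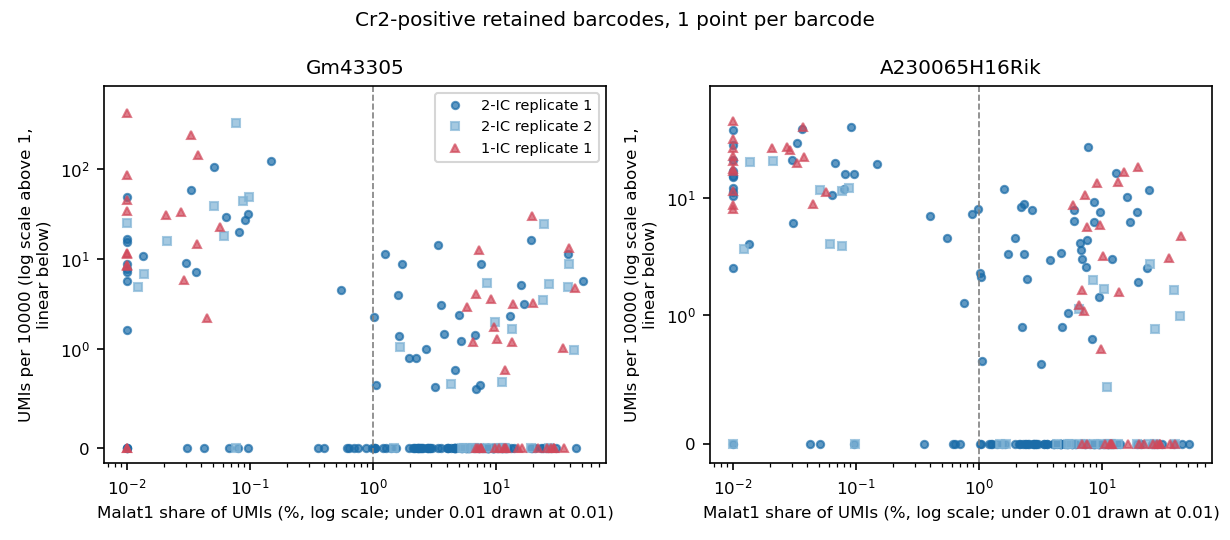
Gm43305 and A230065H16Rik in UMIs per 10000 (log scale above 1, linear below) against the Malat1 share of UMIs in percent (log scale, values under 0.01 drawn at 0.01), 1 point per Cr2+ barcode, with a dashed line at 1%. Most barcodes form 2 clouds with few in between, and 24 of 230 lie between 0.5% and 2%.

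The level did not fall steadily with the Malat1 share. With libraries summed, Gm43305 stood at 2952 CPM in the 53 Cr2+ barcodes under 0.1% Malat1 and at 632 CPM in the 10 between 0.1% and 1%. It was then 104 CPM between 1% and 5%, 114 CPM between 5% and 10% and 282 CPM at 10% and over. A230065H16Rik ran 1473, 361, 122, 228 and 241 CPM over the same steps. The 10 barcodes between 0.1% and 1% all came from 2-IC replicate 1, and 1 of them held 25 of their 28 Gm43305 UMIs. Of the 54 between 1% and 5%, 51 came from 2-IC replicate 1 and 0 from 1-IC. Across single Cr2+ barcodes, which share library and depth, Spearman's rho between Malat1 percent and the level was -0.33, -0.30 and -0.52 for Gm43305 over 145, 35 and 50 barcodes, and -0.37, -0.39 and -0.72 for A230065H16Rik.

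Other genes changed between the Malat1 classes too. Of the 15 FDC genes, all tested, Fcer2a (log2 1.56, edgeR adjusted p = 0.0378) and Fcgr2b (log2 1.16, edgeR adjusted p = 0.0415) rose and Enpp2, which encodes autotaxin, fell (log2 -1.06, edgeR adjusted p = 0.0312), with a list median of 0.48 against -0.09 over all genes tested. Cr2 itself did not pass (log2 0.58, edgeR adjusted p = 0.0963). Of 8 nuclear long noncoding RNAs 4 could be tested. Malat1, which defined the classes, and Neat1 (log2 -3.96) fell, with Neat1 at 0 CPM in the Malat1-low sums of 2-IC replicate 2 and 1-IC. Kcnq1ot1 stood at 0 CPM in all 3 Malat1-low sums against 92.3, 402 and 203 CPM in the Malat1-high ones. It entered the test only through its Malat1-high sums and is not counted, and its log2 of -8.74 is set against 0 counts. None of the 14 mitochondrial genes tested passed, with a median of -0.32. Median mitochondrial share was 2.09%, 2.59% and 1.48% in Malat1-low against 2.44%, 3.41% and 1.19% in Malat1-high barcodes.

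Some markers listed for other cells differed between the Malat1 classes. The summed level of 10 B cell markers was 2479, 738 and 1163 CPM in Malat1-low against 721, 354 and 718 CPM in Malat1-high barcodes, with 7 of 10 detected in the low class and Cd79a, Cd79b and Cd22 at 0. Most UMIs of this list were from Cd74, which encodes the invariant chain of MHC class II and is not limited to B cells. It gave 427 UMIs in Malat1-low and 718 in Malat1-high barcodes, so the sums mainly follow that gene. The contaminant filter sets Cd79a, Cd79b, Trac, Cd3d, Cldn5, Egfl7, Ly6c1 and Lyve1 to 0 in both classes. The 7 myeloid markers summed to 65.6 to 709 CPM in Malat1-low (all detected) and 60.1 to 67.4 CPM in Malat1-high barcodes (6 detected, C1qb at 0). The 7 T cell markers ranged from 7.10 to 36.3 and from 3.76 to 24.1 CPM, with Trac and Cd3d at 0 in both. The 6 endothelial markers ranged from 0 to 18.2 and from 2.81 to 8.52 CPM, with Cldn5, Egfl7, Ly6c1 and Lyve1 at 0 in both. The part of these markers in the member levels was not tested. The 10 matrix genes summed to 7239, 2428 and 1163 CPM against 10606, 13172 and 4730 CPM.

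Outside the Cr2 label, Malat1-low barcodes had a higher Gm43305 level, which rested on few barcodes. Gm43305 stood at 88.9 against 14.2, 32.2 against 14.3 and 171 against 9.85 CPM in Malat1-low and Malat1-high Cr2- barcodes of the 3 libraries. A230065H16Rik stood at 5.71 against 1.75, 0 against 0.385 and 144 against 1.23 CPM, so the 2-IC replicate 2 value did not follow. The 144 CPM rested on 11 UMIs, 7 of them in 1 barcode. These comparisons were not tested.

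A230065H16Rik rose with both Fc receptors. At least 1 Fcer2a UMI was found in 49, 13 and 20 Cr2+ barcodes (82 in all), and 96, 22 and 30 had none. With and without Fcer2a, A230065H16Rik stood at 629 and 143 CPM (2-IC replicate 1), 438 and 50.0 CPM (2-IC replicate 2) and 1499 and 289 CPM (1-IC). Within each library the barcodes with Fcer2a were higher by at least 4.41 times, and the test gave log2 2.48 (SE 0.24, edgeR adjusted p = 0.000165). Gm43305 also rose, with 531 against 122, 956 against 536 and 1499 against 877 CPM (log2 1.23, SE 0.24, edgeR adjusted p = 0.00782). Gm42031 did not pass, at 285 against 75.9, 438 against 397 and 474 against 326 CPM (log2 0.86, SE 0.29, edgeR adjusted p = 0.125). Thus 2 of 3 tested members were called higher, where 2.46% of the 3695 genes tested were called higher, 2.17% lower and 4.63% in either direction. Fcer2a is on the FDC list and the members were chosen as high in FDC barcodes, so the 2 of 3 is no result independent of that choice.

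The Fcer2a classes differed in Cr2 counts, matrix RNA and Malat1 as well. A single Cr2 UMI was all that 8 of the 82 barcodes with Fcer2a and 73 of the 148 without had. The 10 matrix genes summed to 3863, 11535 and 1652 CPM with Fcer2a against 13539, 11634 and 5813 CPM without. The FDC label is thus less sure in the class without Fcer2a, and its part in the member differences was not tested. Malat1-low barcodes were 43.9% of those with Fcer2a and 18.2% of those without. Among Malat1-high barcodes only, edgeR called 0 of 3243 genes, with 232 at an unadjusted p under 0.05, and no other tool was run on that subset. There A230065H16Rik stood at 375 against 78.8, 92.8 against 29.7 and 1054 against 140.0 CPM (log2 2.40, adjusted p = 0.137) and Gm43305 at 213 against 49.0, 209 against 200 and 569 against 105 CPM (log2 1.62, adjusted p = 0.392). In Malat1-high barcodes the direction was the same in every library for both, with the call lost. Fcer2a itself, which defined the classes, was not called there either. A lost call in that subset therefore cannot show whether the differences depend on Malat1. In Malat1-low barcodes Gm43305 stood at 1592 against 611, 2222 against 9496 and 3956 against 7791 CPM, which was not tested. There it was lower with Fcer2a in 2-IC replicate 2 and in 1-IC. In those libraries 3 and 7 Malat1-low barcodes had no Fcer2a, and 1 barcode of each held 87 and 73 UMIs. The Gm43305 call was lost in 7 of 13 alternatives, among them without 2-IC replicate 1 (log2 0.86, edgeR adjusted p = 0.107), without the contaminant filter (log2 0.29, edgeR adjusted p = 0.507) and without the library block (log2 0.99, edgeR adjusted p = 0.728, the highest). Gm42031 was called without 2-IC replicate 2 (log2 1.18, edgeR adjusted p = 0.00323) and stood at 0.40 without 2-IC replicate 1 (edgeR adjusted p = 0.627). 7 of the 15 FDC genes rose with Fcer2a, Fcer2a itself included, among them Coch (log2 2.84, edgeR adjusted p = 0.000186), Fcgr2b (2.20, adjusted p = 0.000234) and Prnp (1.43, adjusted p = 0.000527), and Enpp2 fell, with a list median of 0.42 against -0.03 over all genes tested.

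**Figure D4:**
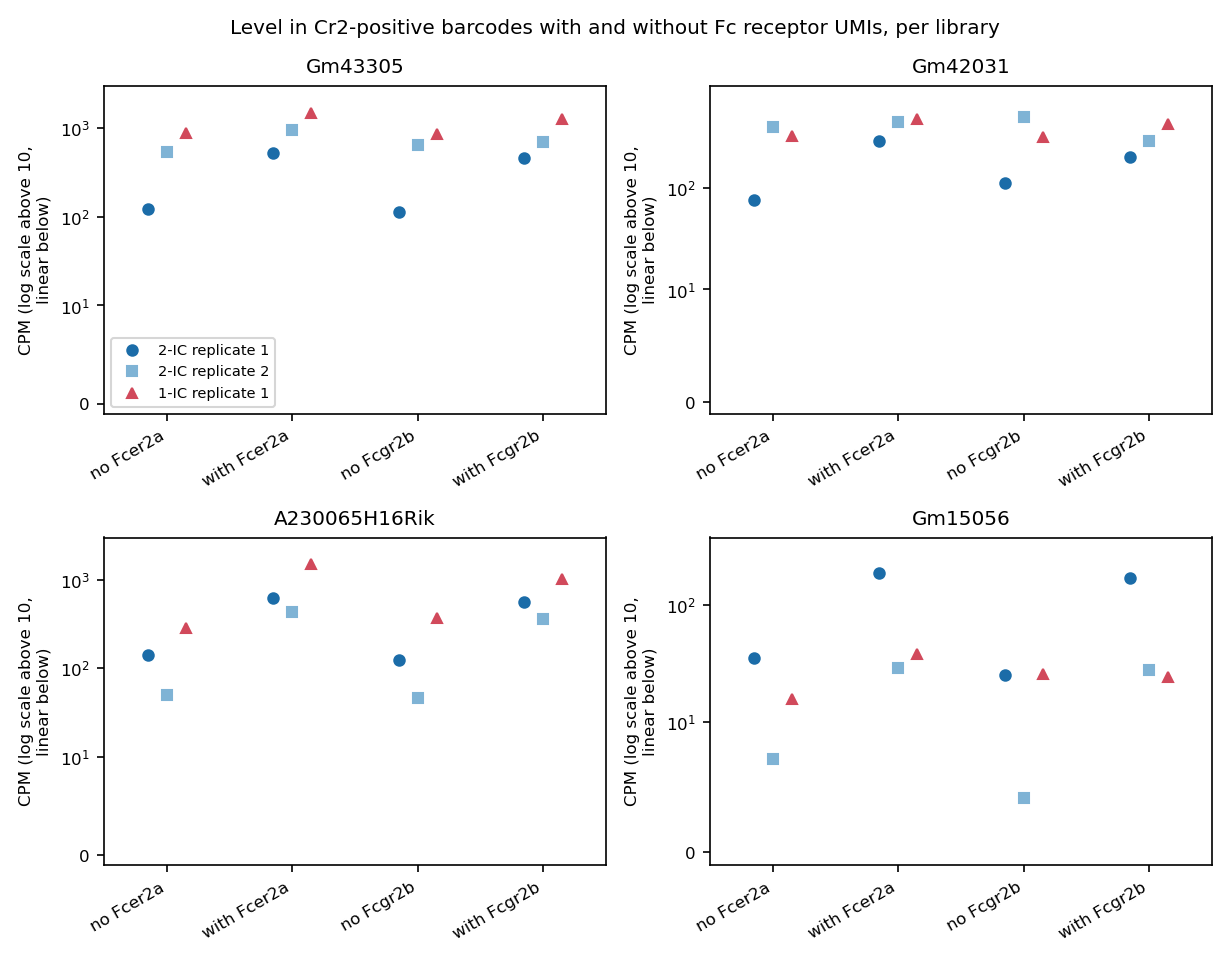
Level in CPM (log scale above 10, linear below) in Cr2+ barcodes without and with a UMI of Fcer2a or of Fcgr2b, 1 point per library. For A230065H16Rik the points with either receptor are higher than those without in all 3 libraries, and for Gm42031 the 2-IC replicate 2 point is lower with Fcgr2b (288 CPM) than without (499.7 CPM).

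With Fcgr2b, A230065H16Rik rose again and the pair with like promoters was not called. Fcgr2b was found in 59, 14 and 28 Cr2+ barcodes (101 in all) and missing from 86, 21 and 22. A230065H16Rik stood at 560 against 124, 356 against 45.8 and 1015 against 369.8 CPM with and without Fcgr2b (log2 2.12, SE 0.30, edgeR adjusted p = 0.00425). Gm43305 stood at 464 against 113, 707 against 650 and 1283 against 860 CPM (log2 0.90, SE 0.32, edgeR adjusted p = 0.209). Gm42031 stood at 202 against 111, 288 against 499.7 and 425 against 318 CPM (log2 0.17, SE 0.31, edgeR adjusted p = 0.915), so 2-IC replicate 2 went against the other two. So 1 of 3 tested members was called, where 1.67% of the 3471 genes tested were called higher, 1.01% lower and 2.68% in either direction. The choice of the members bears on this count as it does for Fcer2a. Without 2-IC replicate 2, Gm43305 was called (log2 1.22, edgeR adjusted p = 0.0420), and without 2-IC replicate 1 its log2 difference was 0.39 (edgeR adjusted p = 0.999).

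Within Malat1-high barcodes the Fcgr2b difference was larger for Gm43305. It stood at 166 against 57.0, 384 against 72.3 and 405 against 40.8 CPM, and was called (log2 2.30, SE 0.37, edgeR adjusted p = 0.00352). In 2-IC replicate 2, 1 Fcgr2b+ barcode held 36 of the 72 Gm43305 UMIs of Malat1-high barcodes. After thinning, Gm43305 was found there in 20% of Fcgr2b+ and 21.4% of Fcgr2b- Malat1-high barcodes. Detection in that library was thus not higher with Fcgr2b, whereas it was in the other libraries. A230065H16Rik stood at 358 against 42.2, 94.3 against 9.64 and 672 against 112 CPM (log2 2.91, SE 0.36, edgeR adjusted p = 0.000299). In Malat1-low barcodes Gm43305 stood at 1651 against 461, 2395 against 4328 and 5294 against 5278.5 CPM, which was not tested. Malat1-low barcodes made up 33.7% of Fcgr2b+ and 22.5% of Fcgr2b- barcodes, and 60.4% of Fcgr2b+ barcodes also had Fcer2a against 16.3% of the others. A single Cr2 UMI was all that 11 of the 101 Fcgr2b+ and 70 of the 129 Fcgr2b- barcodes had. Of the 15 FDC genes 6 rose with Fcgr2b, Fcgr2b itself included, and 0 fell, with a list median of 0.35 against 0.01 over all genes tested.

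Gm15056 did not reach the low-count filter in either Fc receptor comparison and has no test there. With and without Fcer2a it stood at 190.0 against 35.2, 29.2 against 7.15 and 38.2 against 15.8 CPM. The 2-IC replicate 1 ratio had a counting interval of 3.17 to 9.61, and those of the other libraries, 0.585 to 45.1 and 0.472 to 15.6, both included equal levels. With and without Fcgr2b it stood at 172 against 25.6, 28.3 against 4.16 and 24.4 against 25.8 CPM.

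B cell markers also differed between the receptor classes. Their 10 genes summed to 241 to 1465 CPM with Fcer2a (7 detected, Cd79a, Cd79b and Cd22 at 0) and to 493 to 951 CPM without it (8 detected). With Fcgr2b the range was 187 to 1345 CPM and without it 575 to 851 CPM. Cd74 again gave the most UMIs of the list in every one of these classes. Myeloid markers ranged from 43.8 to 180.2 CPM with and 70.4 to 210.1 CPM without Fcer2a, and from 28.3 to 219.6 with and 74.7 to 95.8 CPM without Fcgr2b. T cell and endothelial markers each stayed at 34.5 CPM or less in all 4 classes, with Trac, Cd3d, Cldn5, Egfl7, Ly6c1 and Lyve1 at 0 through the contaminant filter, as are Cd79a and Cd79b. Their part in the member levels was not tested.

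Cr2+ stromal barcodes that carried Cd79a had less A230065H16Rik, Gm15056 and Gm42031. For this comparison the contaminant filter was not applied, and stromal origin was asked for by at least 1 UMI of 10 matrix genes, which gave 276, 91 and 29 barcodes with Cd79a and 192, 46 and 47 without. With and without Cd79a, A230065H16Rik stood at 89.3 and 299.4 CPM (2-IC replicate 1), 32.4 and 140.5 CPM (2-IC replicate 2) and 81.9 and 731 CPM (1-IC). All 3 libraries were lower with Cd79a, a fall of 2.13 on the log2 scale (SE 0.28, edgeR adjusted p = 0.000379). Gm15056 stood at 15.2 against 69.4, 6.49 against 12.3 and 12.9 against 24.8 CPM (log2 -1.66, SE 0.33, edgeR adjusted p = 0.00466). Outside 2-IC replicate 1 that rested on 10 against 7 and 3 against 8 UMIs. The counting intervals of those ratios, 0.181 to 1.63 and 0.0891 to 2.17, both included equal levels. Gm42031 stood at 102 against 298, 317 against 349 and 56.0 against 273 CPM (log2 -1.04, SE 0.33, edgeR adjusted p = 0.0451). Its ratio in 2-IC replicate 2 had a counting interval of 0.768 to 1.08, which included equal levels. The share of genes called here was large: 3 of 4 members were lower, where 11.8% of the 8609 genes tested were called lower, 12.4% higher and 24.2% in either direction. That the members were chosen as high in FDC barcodes bears on this count too.

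Gm43305 was not called over all barcodes. It stood at 239 against 377, 657 against 595 and 224 against 753 CPM with and without Cd79a (log2 -0.58, SE 0.31, edgeR adjusted p = 0.198). With barcodes thinned to 2000 UMIs it was called lower (log2 -1.42, edgeR adjusted p = 0.000198). One barcode of 2-IC replicate 2 with Cd79a held 336 of the 1013 UMIs there. Among Malat1-high barcodes it was higher with Cd79a (178 against 131, 372 against 256 and 203 against 169 CPM, log2 0.57, SE 0.19, edgeR adjusted p = 0.0409), whereas A230065H16Rik stayed lower (73.3 against 202, 19.2 against 43.3 and 44.1 against 416 CPM, log2 -1.66, SE 0.30, edgeR adjusted p = 0.000537). In that subset Gm42031 gave log2 0.32 (edgeR adjusted p = 0.336). The Gm42031 call over all barcodes was lost without 2-IC replicate 1 (log2 -0.91, edgeR adjusted p = 0.293) and without the shared barcode sequences (log2 -1.05, edgeR adjusted p = 0.0647), 27 of the 681 in this comparison.

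FDC genes were lower in the barcodes with Cd79a as well. Of the 15, 13 fell and 0 rose, with a list median of -1.72 against 0.02 over all genes tested. Clu fell by 1.72 (edgeR adjusted p = 2.67e-06) and Cxcl13 by 1.94 (edgeR adjusted p = 1.30e-06) on the log2 scale, near the size for A230065H16Rik, while Fcer2a did not pass (log2 0.61, edgeR adjusted p = 0.0545). The 10 B cell markers, all detected with Cd79a, summed to 15387, 12700 and 15158 CPM, against 1026, 562 and 902 CPM without it. Since barcodes with RNA of both a B cell and a stromal cell hold a smaller share of each, lower FDC gene levels and more B cell RNA cannot be told apart here. The 10 matrix genes summed to 8091, 8598 and 9390 CPM with Cd79a against 10523, 11691 and 4779 CPM without. A single Cr2 UMI was all that 207 of the 396 barcodes with Cd79a and 114 of the 285 without had. Cr2 is also a B cell gene, so the FDC label is less sure with Cd79a, and its part was not tested. T cell markers ranged from 25.9 to 90.1 and from 3.10 to 131.7 CPM, myeloid markers from 29.2 to 99.2 and from 50.9 to 151.9 CPM and endothelial markers from 34.5 to 84.3 and from 9.30 to 26.8 CPM, with Cldn5 at 0 in both classes.

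B cell barcodes held Gm43305 but almost no A230065H16Rik and no Gm15056. These are the 67, 18 and 136 barcodes (221 in all) with Cd79a and no matrix UMI, and their 10 B cell markers summed to 24140 to 39715 CPM. Gm43305 stood at 154, 559 and 337 CPM, and in 2-IC replicate 2, 49 of its 65 UMIs were in 1 barcode. Gm42031 stood at 33.6, 241 and 105 CPM. A230065H16Rik had 0 UMIs in 67 and in 18 barcodes, which allows a share with a UMI of up to 4.48% and 16.7%, and 8 UMIs in 136 (16.4 CPM). Gm15056 had 0 UMIs in all 221, which allows up to 1.36%. A230065H16Rik was thus missing or rare and Gm15056 missing in the B cell barcodes at hand, and Gm43305 and Gm42031 were found in all 3 libraries. In 2-IC replicate 2 the limit of 16.7% lies above the 14.3% of Cr2+ barcodes with Gm15056. Its 0 UMIs there therefore cannot show a lower share than in Cr2+ barcodes.

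**Figure D5:**
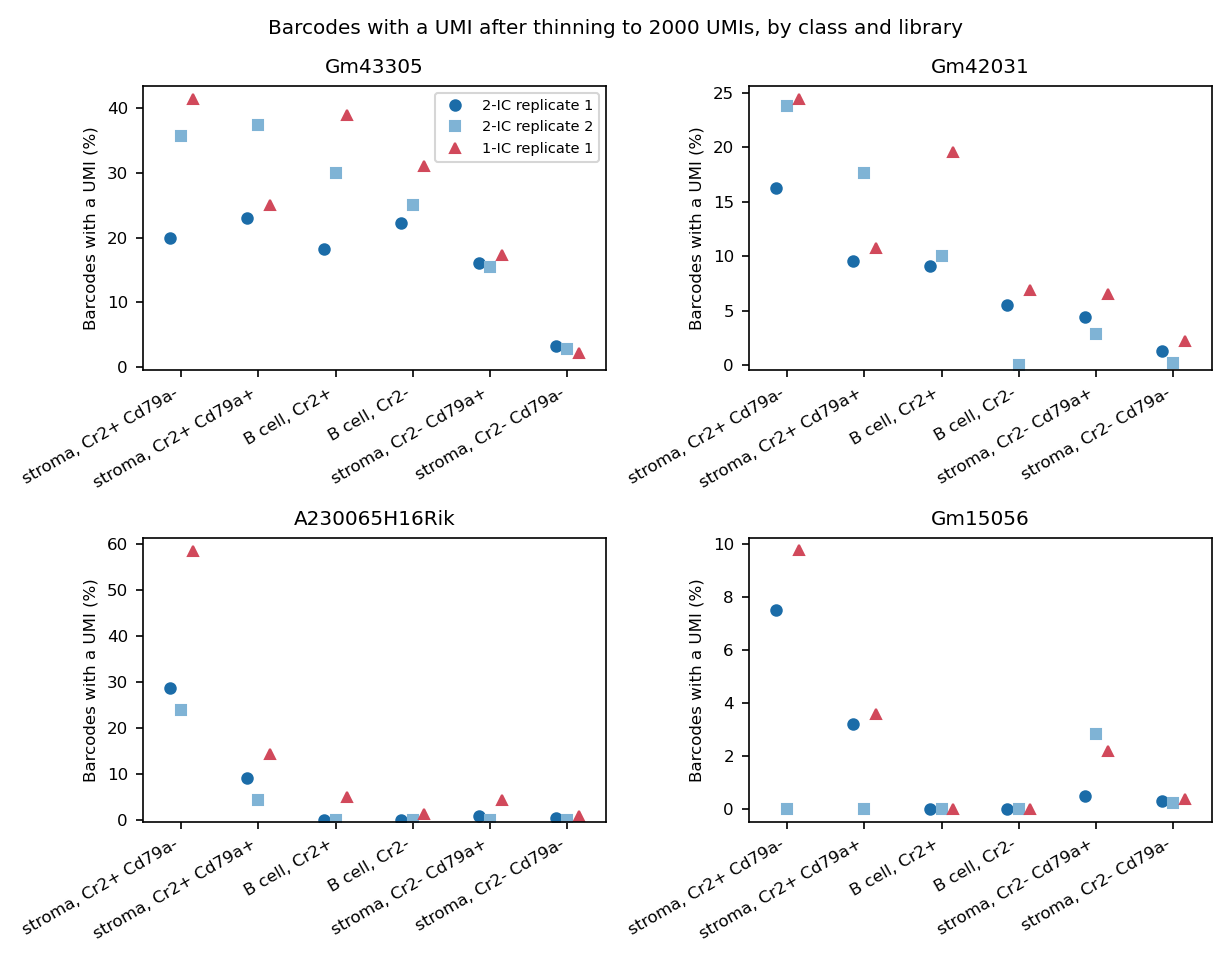
Percent of barcodes with at least 1 UMI of each transcript after thinning every barcode to 2000 UMIs, by stromal (matrix UMI) or B cell (Cd79a UMI, no matrix UMI) class and by Cr2 and Cd79a, 1 point per library. Gm43305 in Cr2- B cell barcodes (22.2% to 31.0%) is above Cr2- stroma without Cd79a (2.21% to 3.33%), and Gm15056 is at 0 in B cell barcodes.

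Gm43305 was also found in B cell barcodes without Cr2. In the 52, 8 and 95 B cell barcodes with no Cr2 UMI, Gm43305 stood at 150, 127 and 242 CPM and, at 2000 UMIs per barcode, was found in 22.2%, 25% and 31.0%. Cr2- stromal barcodes without Cd79a (1862, 516 and 306) stood at 26.9, 16.7 and 15.3 CPM and 3.33%, 2.78% and 2.21%. Cr2- stromal barcodes with Cd79a (712, 81 and 49) lay between, at 103, 71.6 and 131 CPM and 16.1%, 15.5% and 17.4%. Median depth of the B cell barcodes was 2664, 5744 and 3107 UMIs, and that of the Cr2- stroma without Cd79a was 4901, 15098 and 6563. The differences between these classes were in the same order in all 3 libraries and were not tested across genes. In the B cell barcodes 25 of 221 were Malat1-low, and Gm43305 stood at 1092 CPM in those and at 225 CPM in the others, with libraries summed. Of the 25, 18 came from 2-IC replicate 1, 1 from 2-IC replicate 2 and 6 from 1-IC. In the 2 libraries with at least 5 of them, Gm43305 stood at 197 and 1437 CPM. In the Malat1-high B cell barcodes the 3 libraries ran from 140 to 270 CPM, and this comparison was not tested.

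The ratio of Cxcl13 UMIs to Gm43305 UMIs was measured in each class. Cxcl13, an abundant stromal transcript, had 1.31, 0.6 and 0.787 UMIs for each Gm43305 UMI in B cell barcodes. In Cr2+ retained barcodes the ratio was 122, 29.6 and 47.6, and in the Malat1-low ones among them 34.4, 10.3 and 11.6. In Cr2- stroma without Cd79a it was 231, 217 and 627. The source of the Gm43305 UMIs in B cell barcodes, free RNA in the suspension included, was not tested. Cxcl13 stood at 202, 335 and 265 CPM and Clu at 230.4, 172 and 209.7 CPM in the B cell barcodes.

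Genes with a like pattern differed between the members. Over 18 sums, 3 libraries by 6 gates, which share libraries and depth, 6178 genes were ranked by Pearson's r of log2 CPM with each member, as a description. For Gm43305 the closest were Sh3bgrl2 (0.96), Fcer2a (0.93), Adgb (0.92), Slc38a1 (0.92) and Insm1 (0.91), and Gm42031 itself reached 0.95. Gm42031 was closest to Slc35g1 (0.93), Insm1 (0.92), Stum (0.92), Stra6 (0.91) and Strbp (0.90). Among the genes close to A230065H16Rik were Ephx4 (0.97), Slc35g1 (0.97), Itgb4 (0.96), which encodes integrin beta 4, and Prr15 (0.96). Among those close to Gm15056 were Fyb (0.87), Anxa2 (0.85), Idi1 (0.83) and Igfals (0.83), and its r with the other members was 0.68 to 0.74.

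Genes next to the members on the genome did not share the pattern for Gm43305, Gm42031 and Gm15056. Their 6 nearest annotated genes, among them Olfr49, Zfp791 and Defb33, had 0 CPM in Cr2+ barcodes with libraries summed and at most 0.415 CPM in Cr2- barcodes. A230065H16Rik lies 4927 bases from Exoc3l4, on the same strand, which stood at 142.7 CPM in Cr2+ against 33.5 CPM in Cr2- barcodes. Cdc42bpb, 29091 bases away on its other side and on the other strand, stood at 34.7 against 29.1 CPM. No neighbour overlapped a member. Genes that share transcribed sequence with Gm43305 or Gm42031, named for that reason alone, were AI506816 (149.7 against 87.0 CPM in Cr2+ and Cr2-) and Chd9 (104 against 60.6 CPM), while Gm4316 had 3 UMIs and Gm42427 and Gm42428 1 UMI each in Cr2+ barcodes.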

How the data were processed

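Single cell RNA-seq of sorted lymph node stroma was read from the matrices the authors deposited, which hold raw UMI counts per gene and barcode, made with Cell Ranger (the file header gives version 5.0.0, the study's methods an earlier one) on GRCm38. Barcodes with at least 200 genes and at most 10% mitochondrial UMIs passed quality, and those without a UMI of 13 contaminant genes were retained. CPM was computed here per class and library. UMI sums per library and class were tested with edgeR 4.0.16 (R 4.3.3; TMM, filterByExpr, quasi-likelihood, library as block, Benjamini-Hochberg over all genes, threshold 0.05). The test script was tested on simulated data. DESeq2 1.42.0, another scaling, thinning to 2000 UMIs and each library left out served as alternatives. Doublets were not called. Named genes are the 4 members, for each the 5 genes of highest correlation (mean of at least 20 CPM in Cr2+ sums, prior count 2), genome neighbours and fixed lists, of which those called may be named. Some genes of highest correlation are not reported here. Members and lists were chosen with earlier results of these data known. Sequences are from RefSeq GRCm38.p6, and all 4 members matched.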

Additional observations from a re-analysis of the deposited data

Results flagged for a closer look

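Gm15056 was higher in Fcgr2b+ than in Fcgr2b- barcodes of both 2-IC libraries (6.73 and 6.79 times) and lower in 1-IC, with a log2 ratio of -0.0803 from 5 against 3 UMIs, and the difference between treatments was not tested.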

How the results depend on the processing

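The Malat1 calls of Gm43305 and Gm42031 held under all 14 alternatives, while Gm15056 could not be fitted after thinning, with the class limit at 2% and without 2-IC replicate 1. A230065H16Rik kept its Cd79a call in 13 of 13, its Fcgr2b call in 12 of 13 and its Fcer2a call in 11 of 13 alternatives, while Gm43305 lost its Fcer2a call in 7 of 13. The cause of the changes below was not tested.

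The 203 genes called between the Malat1 classes became 371 with at least 2 Cr2 UMIs, 125 with thinned barcodes, 121 with DESeq2, 668 with the class limit at 0.5% and 115 at 2%, 355 without Malat1 in the counts, 47 without the contaminant filter, 563 without the low-count filter and 417 with RLE size factors, and 57 to 447 with a library left out (57 without 1-IC, 447 without 2-IC replicate 1). The 171 called for Fcer2a became 15, 83 and 46 (at least 2 Cr2 UMIs, thinned, DESeq2), 0 in Malat1-high barcodes only, 494 without the contaminant filter, 309 without the low-count filter and 51 to 340 with a library left out. The 93 called for Fcgr2b became 28, 43, 53, 547, 255 and 49 to 228 in that order of alternatives, less the Malat1-high one. The 2080 called for Cd79a became 791 thinned, 1150 with DESeq2 and 720 to 3064 with a library left out.

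The labels share replicate numbers only between 1 library of each treatment, so pairing was by library. Without the library block the count of calls was 128 for Malat1, 13 for Fcer2a and 7 for Fcgr2b. Without it the A230065H16Rik calls were lost for Malat1 (log2 2.47, edgeR adjusted p = 0.0526), Fcer2a (2.44, adjusted p = 0.126) and Fcgr2b (1.94, adjusted p = 0.286), and the Gm42031 call for Cd79a (-0.82, adjusted p = 0.196).

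Signs turned for Gm42031 with Fcer2a without the contaminant filter (log2 -0.12), for Gm42031 with Fcgr2b at 2 or more Cr2 UMIs (-0.11) and without 2-IC replicate 1 (-0.17, with 0.60 without 2-IC replicate 2), and in Malat1-high barcodes with Cd79a for Gm43305 (0.57) and Gm42031 (0.32). Thinned, Gm43305 was called lower with Cd79a (-1.42, edgeR adjusted p = 0.000198). The Gm15056 call with Cd79a was lost with DESeq2 (-1.39, adjusted p = 0.129). The share of A230065H16Rik UMIs in Cr2+ barcodes, as a mean over libraries, moved to 90.6% with at least 2 Cr2 UMIs and 88.0% thinned. With at least 2 Cr2 UMIs, the 2-IC replicate 2 share fell from 78.7% to 53.8% for Gm43305 and from 90.5% to 47.6% for Gm42031. Without the contaminant filter, the 1-IC share fell from 92.6% to 68.7% for Gm43305 and from 93.2% to 70.0% for Gm42031. Both 2-IC libraries rose without that filter, 2-IC replicate 2 to 85.2% and 92.1%. Leaving out shared barcode sequences was chosen after seeing the data. Depth limits Gm15056 most, with 91 UMIs in the Cr2+ barcodes.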
